A study of Danio rerio with 2 samples.

Results

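Hox genes encode homeodomain transcription factors that give cells their position along the head-to-tail axis. They lie in clusters in which a gene's place matches where along the axis it is used. Low paralogue numbers belong to the hindbrain and pharyngeal arches, middle numbers to the trunk and high numbers to the posterior trunk, tail and fin buds. Zebrafish carry duplicated clusters, named by a cluster letter followed by copy a or copy b, so that hoxba and hoxbb are copies of 1 ancestral cluster. The members described here are all probe sets whose single annotated gene symbol begins with hox, a cluster letter from a to d and a paralogue number. There were 59 such probe sets among 15502 on the array, naming 42 genes among 8793. They fell into 13 anterior genes (paralogues 1 to 4), 12 central genes (5 to 8) and 17 posterior genes (9 to 13), from 7 clusters. The members were chosen by name and not by signal, but earlier results of these data were known. A further 8 hox genes of the RefSeq table, among them hoxb1b, hoxa13a and hoxb13a, were not analysed here.

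Total RNA came from whole zebrafish embryos collected at 24 hours after fertilization and was hybridized to Affymetrix zebrafish expression arrays. One array held RNA of embryos injected with a morpholino against a C1q-like gene, at about 5 ng per embryo. A morpholino is a short synthetic strand that pairs with an RNA and keeps it from being translated or spliced. The other array held RNA of embryos injected with about 5 ng of a control morpholino, the same oligomer with 5 mismatches. No strain, allele or number of embryos is given in the sources used here, and both groups were injected, so there was no uninjected group. With 1 array per group no difference has a replicate check, and no test, p-value or standard error between the groups could be had. Hybridization and scanning took place on a different day for each array, so day and morpholino cannot be told apart.

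Values are MAS5 signals, the deposited brightness of a probe set on a linear scale. With the C1q-like morpholino the median signal was 34.7, and with the control morpholino it was 32. Before any ratio, signals under 33.3, the median of both arrays together, were raised to that floor, because low MAS5 signals are mostly background. A gene was counted as measured when either array put it at or above the floor, which held for 5958 of 8793 genes. The median log2 ratio of C1q-like over control morpholino was 0.01 over all measured genes, with quartiles at -0.35 and 0.32. As a gauge of spread between probe sets, floored ratios of the same gene had a pooled standard deviation of 0.45 on the log2 scale. This covers the 789 genes that more than 1 probe set measured. All come from the same 2 arrays, so it holds no spread between arrays, days or embryos, and flooring shortens it. The target of the morpholino could not be checked, since the labels give no gene symbol for it. Of 14 genes chosen to mark embryonic tissues (globin, muscle, keratin, notochord, heart, neuron and neutrophil genes among them), 12 were on the array and all 12 were measured. Of these 10 had ratios above 1 and 6 were at least 1.5-fold higher, beside 50.9% and 10.2% of all measured genes. The smallest of these 6 ratios only just passed the limit, at 628.7 with the C1q-like morpholino against 419 with the control. The median log2 ratio of the 12 was 0.50. Highest were mpx of neutrophils, at 201.3 with the C1q-like morpholino against 83.2 with the control, and gata1a of red cells, at 77.7 against 34.8. Lowest were elavl3 of neurons, at 35.5 against 204.7, and col2a1a of notochord and cartilage, at -0.44 on the log2 scale. The part of these tissues in the hox values was not tested.

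Hox genes as a family were not shifted far, but their ratios differed along the paralogue series. Of 42 hox genes 32 were measured, and 18 of these had ratios below 1 and 14 above 1, against 48.8% of all measured genes below 1 and 50.9% above. The median log2 ratio of the 32 was -0.10. The 9 measured anterior genes had a median log2 ratio of -0.52, the 10 central genes -0.22 and the 13 posterior genes 0.05. Ratios below 1 were found in 7 of 9 anterior, 6 of 10 central and 5 of 13 posterior genes. A gene that reached the floor on 1 array only had to read higher there, which held for 6 genes through the C1q-like array and 2 through the control array. Over genes with both signals at or above the floor, ratios below 1 were found in 7 of 8 anterior, 5 of 8 central and 4 of 8 posterior genes, with medians of -0.52, -0.46 and -0.05. In RNA of whole embryos, fewer cells of a type and less RNA per cell cannot be told apart, and this holds for every value below. Across the 32 genes the Spearman correlation of log2 ratio with paralogue number was 0.31, and it was 0.34 over the 24 genes with both signals at or above the floor. These genes share the same 2 arrays and are not independent points. The log2 ratio also followed mean log2 signal, with a Spearman correlation of -0.51 over the 32 genes, against -0.14 over 4068 other measured genes in the same signal range. Brighter hox genes thus tended to be the lower ones, and the part of brightness in the order of the classes was not tested.

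**Figure D1:**
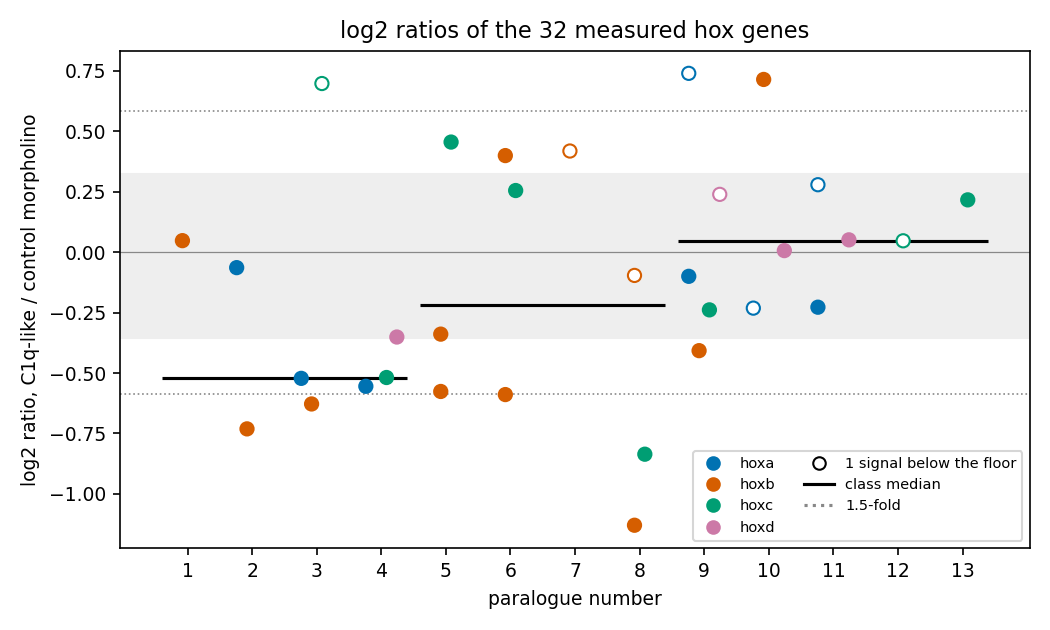
The log2 ratio of C1q-like over control morpholino (vertical axis) is plotted against paralogue number (horizontal axis) for the 32 measured hox genes, coloured by cluster letter, with open points where 1 of the 2 signals lay below the floor. Black lines are the class medians (-0.52 anterior, -0.22 central, 0.05 posterior), and the grey band runs between the quartiles of all measured genes. Each point is 1 gene, all read on the same single pair of arrays, so no error bar can be drawn.

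Counted by size, 3 hox genes were at least 1.5-fold higher (hoxc3a, hoxa9a and hoxb10a) and 5 were at least 1.5-fold lower (hoxb2a, hoxb3a, hoxb6b, hoxb8a and hoxc8a). Among all measured genes the share past 1.5-fold was 10.2% on the higher and 14.5% on the lower side, so the shares among the hox genes were close to the background. At 2-fold, 1 hox gene was lower (hoxb8a) and none was higher, against 4.1% and 1.68% of all measured genes. The remaining 24 measured hox genes lay within 1.5-fold. Just inside the 1.5-fold limit were hoxb5a at -0.58, hoxa4a at -0.55, hoxa3a and hoxc4a both at -0.52, and just outside it were hoxb6b at -0.59 and hoxb3a at -0.63. The count of lower genes is therefore set by small distances from the limit.

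Of paralogue group 1, which patterns the hindbrain around rhombomere 4, only hoxb1a was measured. Its signals were nearly equal, 43.2 with the C1q-like morpholino, against 41.8 with the control. The genes hoxa1a and hoxc1a reached the floor on neither array, at 31.4 against 3.9 and at 2.8 against 22.2.

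Paralogue groups 2 to 4, a grouping outside the planned classes that leaves out hoxb1a, held all the measured anterior genes that were lower. Among the 8 measured members 7 were lower, and the median of the 8 was -0.52 on the log2 scale. The gene hoxa2b, which gives the second pharyngeal arch its identity, was among the 7 but nearly level. It read 57.2 with the C1q-like morpholino, against 59.8 with the control. By contrast hoxb2a, of the same paralogue group and active in the hindbrain, read 59.1 against 98.1, a 1.66-fold lower signal. A second probe set of hoxb2a, 13.7 against 21.0, was below the floor on both arrays. With the floor at the 75th percentile of all signals the log2 ratio of hoxb2a was -0.08, against -0.73 as reported, because its C1q-like signal then falls under the floor and its control signal stands barely above it.

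Group 3 genes act in the posterior hindbrain and the posterior pharyngeal arches. The gene hoxb3a read 151.8 with the C1q-like morpholino, against 234.6 with the control (log2 ratio -0.63), and hoxa3a read 47.7 against 68.5. The gene hoxc3a was the exception among groups 2 to 4, at 54.0 with the C1q-like morpholino, against 23.6 with the control. That control signal lay below the floor, so hoxc3a was at least 1.62-fold higher. Both probe sets of hoxd3a were below the floor.

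Group 4 genes, whose forward limit lies in the hindbrain toward the spinal cord, were lower in all 3 measured members, at similar sizes. The gene hoxa4a read 46.9 with the C1q-like morpholino against 68.9 with the control, and hoxc4a read 43.0 against 61.6. For hoxd4a, 2 probe sets were measured, at 108.5 against 138.4 and at 60.7 against 74.9, and their log2 ratios of -0.35 and -0.30 differed by 0.05. The single probe set of hoxb4a was below the floor, at 2.4 against 26.1.

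**Figure D2:**
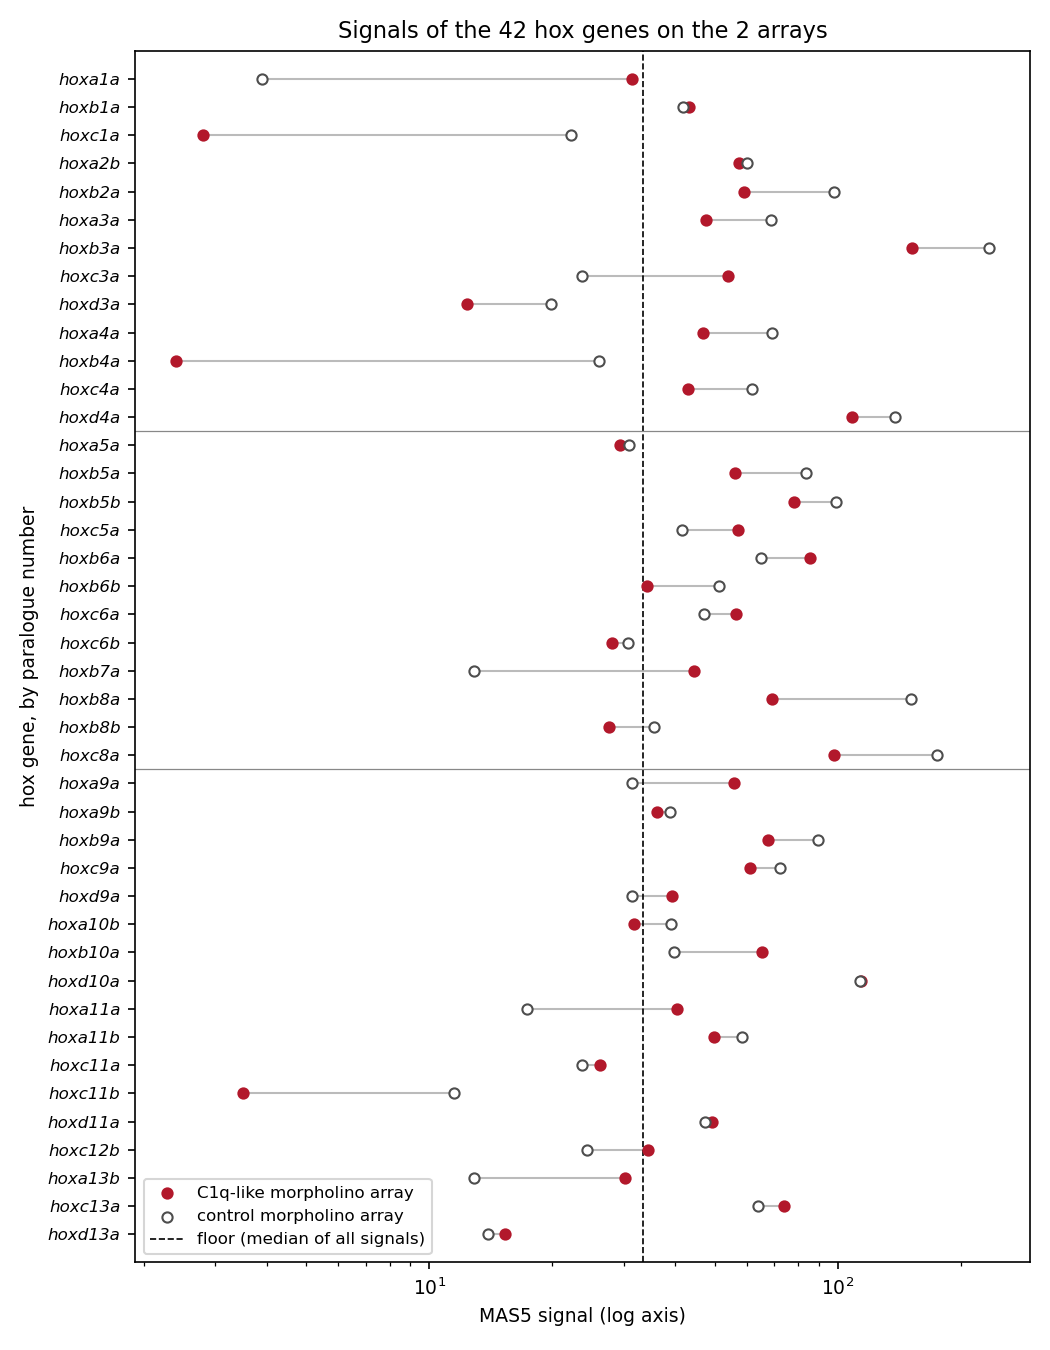
MAS5 signals (horizontal log axis) of the 42 hox genes, ordered by paralogue number, with the C1q-like morpholino array as filled and the control morpholino array as open points, and the floor of 33.3 as a dashed line. Grey horizontal lines part the anterior, central and posterior classes. In paralogue groups 2 to 4, every measured gene but hoxc3a has its filled point left of the open one.

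Central genes went both ways. Among group 5 genes, which act in the anterior trunk and the pectoral fin field, hoxb5a read 56.0 with the C1q-like morpholino, against 83.5 with the control, and its duplicate hoxb5b read 78.1 against 98.8. The third measured member, hoxc5a, was higher, at 56.9 against 41.5 (log2 ratio 0.46). The gene hoxa5a lay just below the floor on both arrays.

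Group 6 and group 7 members are genes of the trunk spinal cord and mesoderm. The gene hoxb6a read 85.6 with the C1q-like morpholino, against 64.9 with the control, whereas its duplicate hoxb6b read 34.1 against 51.3, so that the 2 copies stood 0.99 apart on the log2 scale. The gene hoxc6a read 56.2 against 47.1, and hoxc6b was below the floor on both arrays. The only group 7 gene, hoxb7a, had 2 probe sets that read 44.5 against 12.9 and 45.0 against 2.5. Both control signals were below the floor, so hoxb7a was at least 1.34-fold higher.

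The 2 lowest hox ratios were in group 8, genes of the trunk. The gene hoxb8a read 69.1 with the C1q-like morpholino, against 151.2 with the control, a 2.19-fold lower signal and the lowest of the 32. A second probe set of hoxb8a read 27.6 against 72.7, with a log2 ratio of -1.13 after its C1q-like signal was raised to the floor and -1.40 before. Its identifier marks shared probes, so it may also read other transcripts. The third was below the floor on both arrays. The gene hoxc8a read 98.1 with the C1q-like morpholino, against 175.1 with the control, 1.78-fold lower. The remaining 2 lay under the floor, and as a mean over all 3 the log2 ratio of hoxc8a was -0.28, where -0.84 is reported above for its brightest. The duplicate hoxb8b read 27.6 against 35.6, close to the floor.

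Posterior genes stood nearer to a ratio of 1. Of 13 measured, 8 had ratios above 1, 2 were at least 1.5-fold higher and none was at least 1.5-fold lower. Over all measured genes those shares were 50.9%, 10.2% and 14.5%, so with 13 genes the counts are not far from the background. Of the 8 posterior genes with both signals at or above the floor, 4 were above a ratio of 1 and 4 below it. The 5 group 9 genes, which act in the posterior trunk and fin buds, were mixed. The gene hoxa9a read 55.6 with the C1q-like morpholino, against 31.4 with the control, at least 1.67-fold higher since the control lay below the floor. A second probe set of hoxa9a, 34.8 against 26.6, gave a log2 ratio of 0.06, against 0.74 for the first. Its duplicate hoxa9b was nearly level, at 36.2 against 38.8. The gene hoxb9a was lower by both of its probe sets, of which the first read 67.4 against 89.4, and which gave log2 ratios of -0.41 and -0.75. The gene hoxc9a read 61.1 against 72.1, and hoxd9a read 39.3 against 31.4.

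In group 10, hoxb10a read 65.3 with the C1q-like morpholino, against 39.8 with the control, 1.64-fold higher, the only hox gene past 1.5-fold on the higher side with both signals above the floor. The remaining 2 probe sets lay under the floor on both arrays and read lower, at 15.8 against 28.9 and 6.4 against 11.3. Its log2 ratio as a mean over all 3 was 0.24, against 0.71 as reported. The gene hoxd10a was level, at 113.8 against 113.3, and hoxa10b read 31.8 against 39.1. The gene hoxa10b reached the floor on the control array only and could not have read higher. A split in direction within this paralogue group is therefore not shown.

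Groups 11 to 13 belong to the tail and the distal fin. The gene hoxa11a read 40.4 with the C1q-like morpholino, against 17.4 with the control, and its duplicate hoxa11b read 49.7 against 58.2. The gene hoxd11a was nearly level, at 49.1 against 47.4. The gene hoxc12b, at 34.4 against 24.4, was close to the floor and reached it on the C1q-like array only. The gene hoxc13a, of the caudal end of the series, read 74.0 against 63.7. Below the floor on both arrays were hoxc11a, hoxc11b, hoxa13b and hoxd13a, so the most posterior genes rest on few readings.

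By cluster letter, the 12 measured hoxb genes had the lowest median log2 ratio, -0.37, with 8 below a ratio of 1. The 8 hoxa genes had a median of -0.16, the 8 hoxc genes 0.13 and the 4 hoxd genes 0.03. The hoxc value was not stable, and over the 6 hoxc genes with both signals at or above the floor it was -0.011. The clusters do not hold the same paralogues, and no central hoxd gene was on the array. Within the anterior class, 3 of 3 hoxa, 2 of 3 hoxb, 1 of 2 hoxc and 1 of 1 hoxd genes had ratios below 1, so lower anterior genes occurred under all 4 letters.

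Within the hoxba cluster, which had the most genes on the array, 9 of 10 were measured, 5 below a ratio of 1 and 4 above it. The log2 ratios were 0.05 for hoxb1a, -0.73 for hoxb2a, -0.63 for hoxb3a and -0.58 for hoxb5a. They were 0.40 for hoxb6a, at least 0.42 for hoxb7a and -1.13 for hoxb8a. At the posterior end they were -0.41 for hoxb9a and 0.71 for hoxb10a. Of the 4 above 1, hoxb1a was nearly level, and hoxb7a reached the floor on the C1q-like array only and could not have read lower. The 2 other probe sets of hoxb10a, under the floor, read lower. In the hoxab cluster all 4 measured genes and in the hoxbb cluster all 3 had ratios below 1, with medians of -0.16 and -0.34. Of these, hoxa10b and hoxb8b reached the floor on the control array only and could not have read higher. Of 7 pairs of duplicate genes on the array 5 had both copies measured, and in 2 of these (hoxb5a with hoxb5b, and hoxb8a with hoxb8b) both copies were lower. In the other 3 pairs, hoxa9, hoxa11 and hoxb6, copy a was above a ratio of 1 and copy b below it. The genes hoxa9a and hoxa11a reached the floor on the C1q-like array only and could not have read lower. Only the hoxb5 and hoxb6 pairs had all signals at or above the floor.

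**Figure D3:**
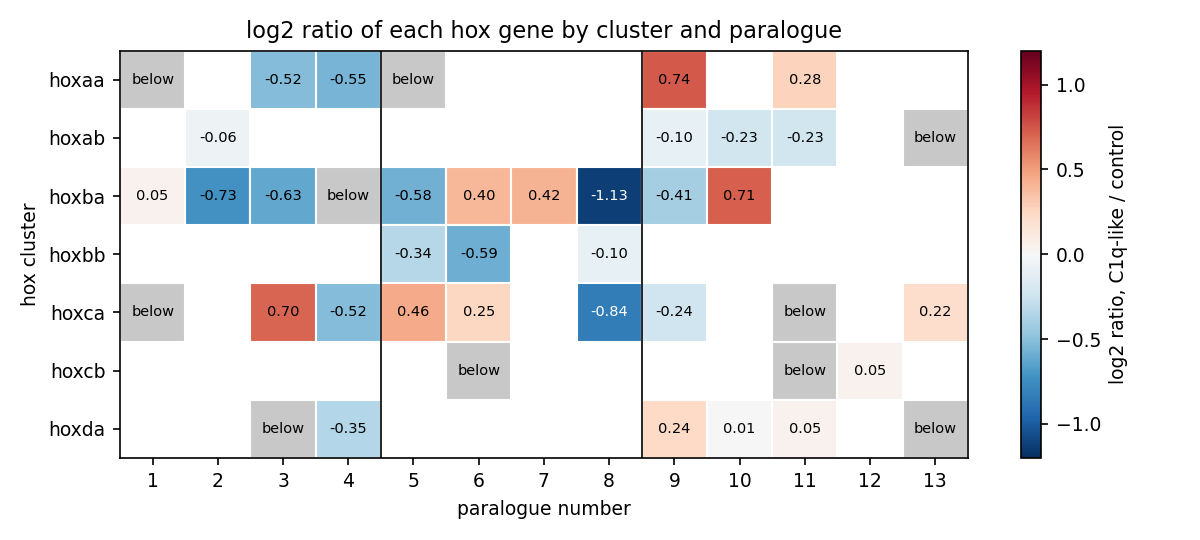
Each cell is 1 hox gene, placed by cluster (rows) and paralogue number (columns), and its colour and number give the log2 ratio of C1q-like over control morpholino. Grey cells marked "below" had both signals under the floor, and blank places had no probe set used here. Blue cells, lower with the C1q-like morpholino, make up most of the coloured cells in columns 2 to 5, 8 and 9, and the darkest is hoxb8a at -1.13.

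Several genes were read by more than 1 probe set, which gives a view of the spread between probe sets on the same 2 arrays. Among the 13 hox genes with several probe sets, 5 had at least 2 measured. Only hoxd4a had both signals of both probe sets above the floor, and its gap of 0.05 on the log2 scale is a direct comparison. In the other 4 genes (hoxa9a, hoxb7a, hoxb8a and hoxb9a) at least 1 signal was raised to the floor, which shortens the gap. Before flooring, the log2 ratios were 0.82 and 0.39 for hoxa9a, 1.79 and 4.17 for hoxb7a, -1.13 and -1.40 for hoxb8a, and -0.41 and -1.16 for hoxb9a. Each pair had 1 direction, but in these 4 genes this was fixed wholly or in part. Both probe sets of hoxa9a and of hoxb7a reached the floor on the C1q-like array only and could not have read lower. The second measured probe sets of hoxb8a and hoxb9a reached it on the control array only and could not have read higher. Probe sets under the floor on both arrays were left out, and some read the other way, as described for hoxb10a. Sizes differed widely where a signal was near background. In 8 cases probe sets came from the same accession and differed in the letter A or S of the identifier, which marks the orientation of the design sequence. In these cases the S probe set was measured in 5 and the A probe set in 1. Leaving out these A probe sets changed no hox value, because none of them was the one read for its gene. Other A probe sets, without an S partner, were the ones read for hoxc8a, hoxb9a, hoxc11a, hoxd11a and hoxc13a, and these stayed in. For hoxc8a the S probe set, below the floor, read 9.0 against 15.6.

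Hox proteins bind DNA together with the Pbx and Meis homeodomain proteins, and these cofactor genes were lower. This list too was chosen with earlier results of these data known, so it is not independent of the values. Of 14 cofactor genes listed, 12 were on the array and 9 were measured, and 8 of the 9 had ratios below 1. With both signals at or above the floor, 7 of 8 were below 1. The median log2 ratio of the cofactor genes was -0.66. At least 1.5-fold lower were 5 of them and at least 2-fold lower 3, beside 14.5% and 4.1% of all measured genes. The gene pbx4, needed for hindbrain segmentation in zebrafish, read 103.8 with the C1q-like morpholino, against 241.1 with the control, a 2.32-fold lower signal. Its relative pbx1a read 33.0 against 60.1, and could only have read lower, since it reached the floor on the control array only. By comparison pbx2 was level at 99.9 against 94.6. Averaging all of its probe sets gave pbx1a a log2 ratio of -0.28, against -0.85 as reported. The identifier of that reported probe set marks shared probes. All 5 measured Meis genes were lower. Past 2-fold were meis2b, at 57.4 against 122, and meis2a, at 59.0 against 123.8. The gene meis1b read 276.1 against 435, meis3 92.1 against 128 and meis1a 81.6 against 109.5. The Meis relative pknox1.1 read 65.7 against 77.3.

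Genes listed as upstream of the hox clusters were few, and all but mafbb were dim. Of 12 listed regulators 8 were on the array and 4 were measured, with a median log2 ratio of 0.12. All 4 ratios were above 1, but 3 of these genes reached the floor on the C1q-like array only and could not have read lower, which leaves mafbb as the 1 gene with both signals above it. The gene cdx4, encoding a caudal-type activator of trunk hox genes, read 42.8 with the C1q-like morpholino, against 24.5 with the control, at least 1.29-fold higher. The gene mafbb read 175.7 against 154.5, by a probe set whose identifier marks shared probes. Its listed relative mafba was not among those on the array. The posterior homeobox genes eve1 and evx1 were near the floor, at 34.8 against 15.3 and 34.4 against 30.9. Both lie beside hox clusters and are counted again among the neighbouring genes below. The genes cdx1a and egr2b were below the floor.

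Retinoic acid sets the forward limits of many hox genes, and its genes went both ways. Of 12 measured, 7 stood above a ratio of 1 and 5 below it, and their median was 0.24 on the log2 scale. Over those with both signals at or above the floor the median was -0.17, so this list has no settled direction. Highest was rdh10b, encoding a retinol dehydrogenase, at 64.6 with the C1q-like morpholino, against 29.1 with the control, at least 1.94-fold higher. The next was dhrs3a, at 46.6 against 23.2. The synthesis enzyme gene aldh1a2 read 252.3 against 187.6. Lowest was the receptor gene rarga, which lies beside a hox cluster, at 27.9 against 60.0 (log2 ratio -0.85, a lower bound in size), followed by cyp26b1, encoding a degrading enzyme, at 103.4 against 147.3.

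Polycomb and Trithorax genes keep hox genes silent or active. Of 15 measured, 9 were lower and 6 higher, and their median was -0.06 on the log2 scale. At least 1.5-fold lower were 4 of them (phc2a, phc1, ezh2 and cbx2), beside 14.5% of all measured genes. With both signals at or above the floor 8 of 14 were lower and 6 higher, since phc1 reached it on the control array only. Other Polycomb members, such as eed at -0.06 and bmi1a at 0.01 on the log2 scale, were level. The lowest were phc2a, at 161.3 with the C1q-like morpholino against 253 with the control, and phc1, at 30.7 against 51.6. The histone methyltransferase gene ezh2 read 186.8 against 288.9. Highest were the demethylase gene kdm6ba at 0.21 and the ubiquitin ligase gene rnf2 at 0.13 on the log2 scale.

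Genes that merely neighbour the hox clusters went both ways. Protein-coding genes within 3 places of a hox gene in the RefSeq order gave 20 measured genes, 11 lower and 9 higher, and their median was -0.07 on the log2 scale. With both signals at or above the floor, 9 of 14 were lower and 5 higher. The lowest were nfe2l3 at -1.19 and rarga at -0.85, and the highest were calcoco1a at 0.62 and atp5mc1 at 0.45.

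Markers of neural tissue, in which anterior hox genes are strongly used, were also lower. These lists were chosen with earlier results of these data known, so they are not independent of the values. Of 13 measured neural tube progenitor genes, 11 were below a ratio of 1. Past 1.5-fold on the lower side were 8, beside 14.5% of all measured genes. Of the 13, 2 reached the floor on the control array only and could not have read higher. With both signals at or above the floor, 9 of 11 were lower. The median of the 13 was -0.82 on the log2 scale, and -0.36 as a mean over all probe sets of each gene. Their signals summed over the 17 on the array to 1874.1 with the C1q-like morpholino, against 3024.8 with the control, and 4 of the 17 lay below the floor on both arrays, among them pax2a and pax3a. The lowest were dbx1a at -1.34 and olig2 at -1.18, and the highest were nkx2.2a and sox19b, both at 0.34. All 9 measured neuron genes were below a ratio of 1 (median -0.65), with summed signals of 951.6 against 2242 over 11 genes. Of the 9, 1 reached the floor on the control array only, and all 8 with both signals at or above it were lower. The neuron median lay between -0.92 and -0.44 under the alternatives. Lowest were elavl3 at -2.53 and tubb5 at -1.87, and nearest to a ratio of 1 were gap43 at -0.32 and isl2a at -0.44. Head genes of regions ahead of the hox domain had a median of -0.48 over 10 measured genes, from otx2b at -1.65 and en2b at -0.98 to six3a at 0.00 and six3b at 0.22. Of these, 8 were below a ratio of 1, but 5 reached the floor on the control array only and could not have read higher. Among the 5 head genes with both signals at or above the floor, 3 were below and 1 above a ratio of 1. Without a floor the head median was -0.82, while that of the anterior hox genes stayed at -0.52. The part of neural and head tissue in the hox values was not tested.

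Mesoderm and tailbud markers were mostly dim. Of 12 tailbud genes on the array 8 were below the floor, and 3 of the 4 measured had ratios above 1. The directions of fgf8a and dlc were fixed, since each reached the floor on 1 array only. The 2 with both signals at or above the floor, vox and tbxta, were higher. Signals summed over the 12 were 452.2 with the C1q-like morpholino, against 236.3 with the control. The gene vox, at 232.3 against 63.9, made up most of the gap. On the log2 scale tbxta was at 0.42, fgf8a at 0.39 or higher and dlc at -0.36 or lower. The median of 4 measured somite genes was 0.08 on the log2 scale. They ran from foxc1a at -0.23 and tcf15 at 0.05 to myog at 0.10 and myod1 at 0.57 or higher. Only 2 of 9 lateral and intermediate mesoderm genes were measured, hand2 at -0.25 and gata6 at 0.86 or higher. Both myod1 and gata6 reached the floor on the C1q-like array only.

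**Figure D4:**
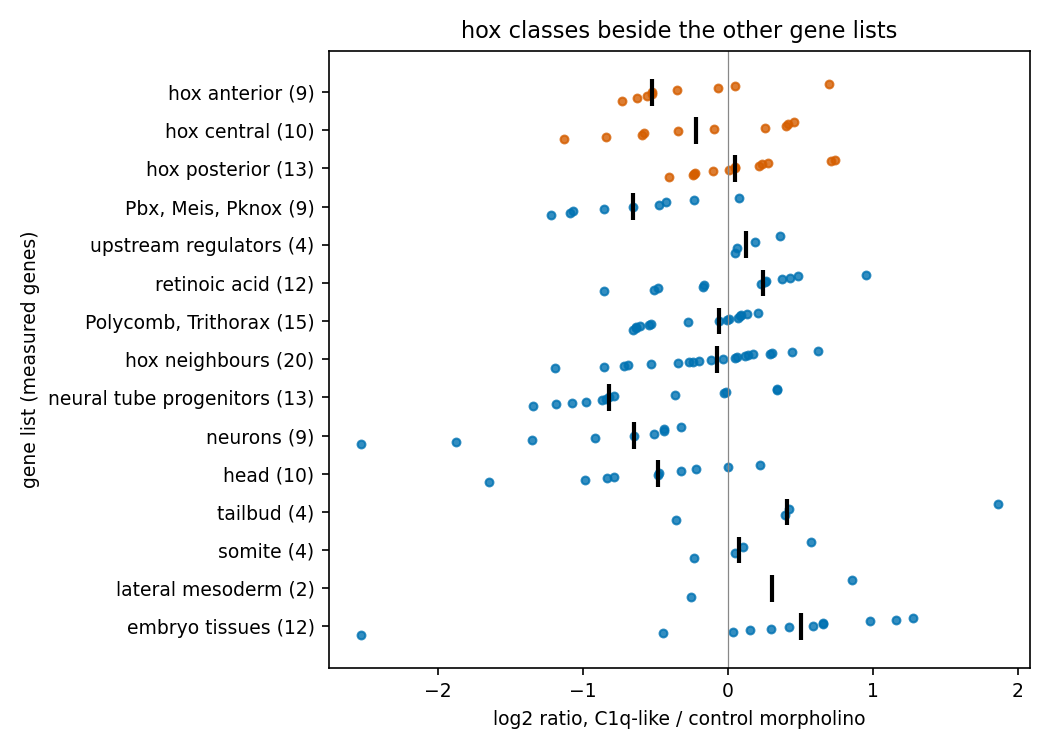
Log2 ratios of C1q-like over control morpholino (horizontal axis) for the measured genes of the 3 hox classes (orange) and of 12 other lists (blue), with the number of genes in brackets and the list median as a black bar. The medians of the anterior hox genes (-0.52), the Pbx, Meis and Pknox genes (-0.66), neural tube progenitors (-0.82), neurons (-0.65) and head genes (-0.48) lie left of 0, that of the posterior hox genes (0.05) lies beside it, and that of the embryo tissue markers (0.50) lies to the right.

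The order of the outer classes was kept under every processing tried. The anterior median was below the posterior median in all 12 alternatives. The anterior lay between -0.53 and -0.29 and the posterior between -0.05 and 0.14, the reported values included. Some alternatives could hardly test this order. Median centring shifts all classes alike, and leaving out shared probes or A probe sets with an S partner changed no class median. With the higher floor, 3 anterior genes stood against 1 posterior gene. The place of the central class was not fixed, and it lay below the anterior class with the higher floor (-0.70 against -0.35) and with group 4 counted as central (-0.35 against -0.29). The medians rest on few genes, and none of them has a replicate.

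**Figure D5:**
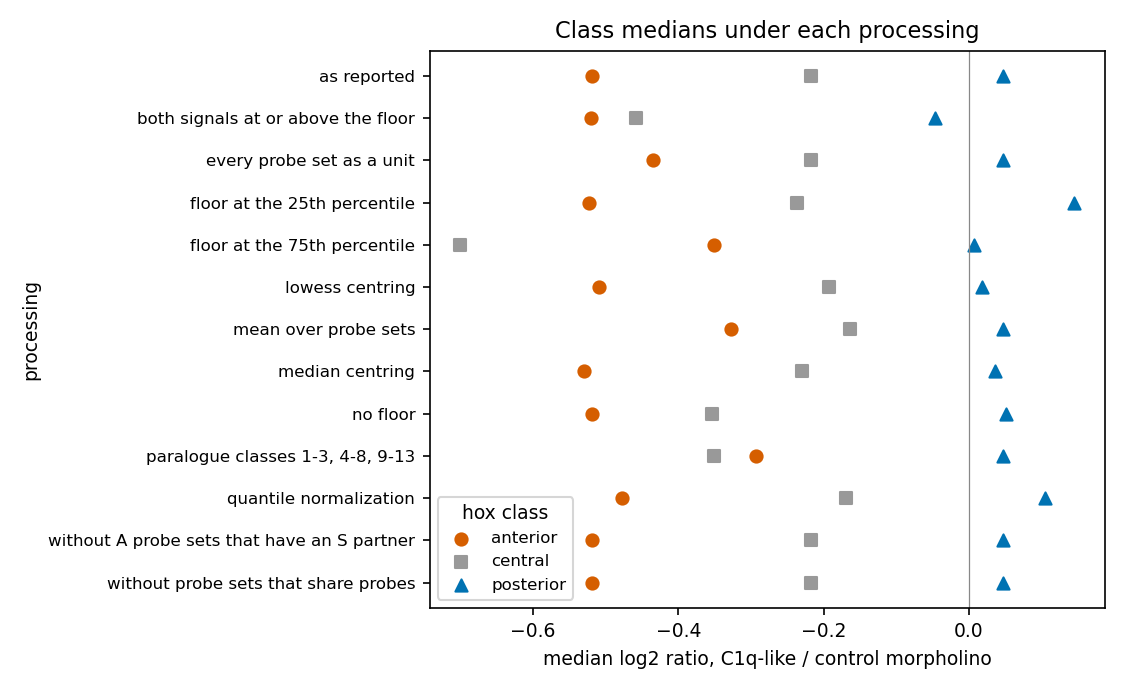
Median log2 ratio of C1q-like over control morpholino (horizontal axis) of the anterior (circles), central (squares) and posterior (triangles) hox genes under the reported processing and 12 alternatives (rows). The circle lies left of the triangle in every row, while the square changes its place.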

How the data were processed

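Per the submitters' processing notes the authors used MAS5, and they deposited 1 signal intensity for each probe set on each array. Its version and scaling target are not given in the sources used here. Means without the extreme 2% at each end were 98.8 and 99.4 on the C1q-like and control morpholino arrays, so the arrays had been scaled alike. No detection calls were used. The deposited instrument settings (an other kind of file, 42 entries per the file headers) differed in 2, the days of hybridization and scanning.

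Signals were floored at 33.3 and log2 ratios taken of C1q-like over control morpholino. Genes were named from the platform annotation through Entrez numbers (RefSeq table of GRCz12tu, no coordinates printed). Where a gene had several probe sets, the one brightest on average (mean of log2 signals) was read. Among the 15502 probe sets, 10795 carried 1 gene symbol, 135 carried several and 4572 carried none. The ratio step was tested on simulated data, with large known ratios put on bright probe sets only. Small ratios, signals near the floor, the choice of probe set and the medians of lists were not tested in this way. Named were all hox genes, all measured Pbx, Meis and Cdx genes, and the 2 highest and 2 lowest members of other lists, with a few more (aldh1a2, ezh2, cbx2, eed, bmi1a, pknox1.1, pax2a, pax3a and egr2b) chosen after their values were seen. The members and lists were chosen with earlier results of these data known. Alternatives were a lower floor (25th percentile), a higher one (75th percentile) or none, median, quantile or lowess (span 0.3) scaling, the mean over probe sets, no shared probes, each probe set as a unit and another class boundary. Chosen after seeing the data were leaving out A probe sets with an S partner, requiring both signals at the floor, and the alternatives for the cofactor genes. Python 3.11.15 was used with statsmodels 0.14.6, scipy 1.17.1, pandas 2.3.3, numpy 2.4.6 and matplotlib 3.10.9.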

Additional observations from a re-analysis of the deposited data

How the results depend on the processing

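With 1 array per group, leaving out replicates could not be done, and no paired analysis was possible because each group had 1 array and the labels carry no replicate numbers. A median was taken as moved when it changed by over 0.1, and a count when it changed by over 1.5 times. Most hox signals lie within a few times the floor, so signal over background limits them. Of 286 values of single hox genes recomputed, 277 changed by less than 0.45, the spread between probe sets of 1 gene. Another 9 changed by more, and no value that was past 1.5-fold changed sign. Part of this was fixed in advance. Requiring both signals at the floor returns the same ratio, median centring shifts every gene alike, and a floor cannot change the sign of a probe set. Many hox ratios were also smaller than 0.45, so a change within that limit could erase or reverse them. The log2 ratio of hoxb1a went from 0.05 to -0.01 with lowess centring, and that of hoxb2a from -0.73 to -0.37 as a mean over probe sets. Leaving out shared probes or A probe sets with an S partner changed no measured hox gene. Median and lowess centring, leaving out shared probes or A probe sets with an S partner, and each probe set as a unit moved no hox result. No scaling moved the median of all measured genes by over 0.1.

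With the floor at the 75th percentile, 7 hox genes were measured, of which 0 were at least 1.5-fold higher and 3 lower. Of all 3374 genes measured with that floor, 265 were higher and 442 lower. The medians there were -0.35 for hox genes, -0.35 anterior, -0.70 central, -0.84 for hoxc (1 gene, against 0.13), -0.17 for hoxd and -0.41 for cofactors. With the floor at the 25th percentile, 41 were measured, 7 higher and 8 lower, and the cofactor median was -0.45. Of all 7838 genes then measured, 1445 were higher and 1247 lower, against 610 and 861 of 5958 as reported. With no floor 5 of 32 hox genes were higher, beside 943 of 5958 measured genes. The medians were then -0.35 central and 0.24 hoxc. Quantile normalization gave medians of -0.25 for hoxb, 0.26 for hoxc and -0.43 for cofactors, and its split over all genes was 703 higher and 716 lower. As means over probe sets 1 of 32 hox genes was higher and 3 were lower, beside 546 and 703 of 5968 measured genes. The medians were then -0.33 anterior and -0.47 for cofactors. With both signals at the floor, 1 of 24 hox genes was higher, beside 496 of 4977 measured genes. The medians were then -0.29 for hox genes, -0.46 central, -0.49 hoxb and -0.011 hoxc. With classes split at 1 to 3 and 4 to 8, the medians were -0.29 anterior and -0.35 central. The neural tube median was -0.36 as means over probe sets, the neuron median ranged from -0.92 to -0.44, and the head median was -0.82 with the lower floor or none. Of the other lists, lateral and intermediate mesoderm reversed with the lower floor (-0.60), the higher floor (-0.25) and both signals at the floor (-0.25), and retinoic acid with the higher floor (-0.15) and both signals at the floor (-0.17).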
